A study of Mus musculus with 9 samples.

Results

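The chromatin of genes with several accessible regions, none of them near the transcription start site (TSS), was described from the ATAC-Seq regions of wild-type mouse embryos. ATAC-Seq finds accessible chromatin as DNA into which the Tn5 transposase can insert. The genes were chosen by the measured positions of their regions: a coding gene was included if at least 2 regions of the list were assigned to it and all of them lay more than 10000 bp from the assigned TSS. In all, 325 genes met this rule and 868 regions belonged to them, of 17164 distinct regions in the list. These 325 genes were 3.11% of the 10460 coding genes that had a region, and 11.9% of the 2730 coding genes that had 2 or more. Their regions made up 15.7% (95% interval 14.8 to 16.7) of the 5517 regions of coding genes beyond 10000 bp, which are called distal here. The other distal regions belonged to genes that also had a region within 10000 bp (3791 regions) or stood alone as the only region of their gene (858 regions).

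The regions came from 1 list, common to 3 libraries of pharyngeal mesoderm and hearts dissected from wild-type (wt) embryos at embryonic day 8.75 (E8.75), when the embryos had 6 somites. The study also made 3 libraries each from Isl1-/- embryos and from embryos of the genotype Isl1Cre+/-/ Brg1fl/fl, in which Cre under the control of Isl1 acts on floxed Brg1. Those 6 libraries were not analysed here. The list held no signal per library, so depth was unknown, no value had a spread over libraries and no difference was tested. The 95% intervals given with shares (Wilson) and medians (from order statistics) covered counting error over regions or genes only, and neighbouring regions of 1 gene are not independent. The tissue held many cell types, and a region open in few cells cannot be told apart from a region weakly open in many. Of 36 transcription factor genes of the heart that were looked up, 23 had a region at all. Of these 23, 21 (91.3%) had a region within 10000 bp of the TSS, beside 88.7% of all coding genes with a region. Of the same 23, 1 (Irx1, 4.35%) was among the 325 genes, beside 3.11%.

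Distal accessible regions are the usual sites of enhancers, DNA elements that bind transcription factors and act on promoters over long distances through looped chromatin. Insulator elements bound by CTCF are also distal and accessible and help to set which promoter an enhancer can reach. Genes of early development often lie beside wide stretches without other genes that hold many such elements. A promoter, in contrast, is usually open wherever its gene can be read, and most promoters rich in CpG dinucleotides are open in most cells. A list of regions assigns each region to 1 TSS and does not measure which gene it acts on.

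The centre of 1 region of each of 6 genes with the most regions is shown first, because these are the loci with the longest series of regions away from the TSS. For each gene the widest region with at most 10% repeated words of 31 bases was taken, and Dlg2 was chosen among 6 genes with 6 regions each by the summed width of its regions. The 300 bp around each midpoint are given on the plus strand of mm9, with matches on either strand to any of 18 motifs of transcription factors in capitals. In the region of Adcyap1, 6 kinds of motif were present, among them the motif AGATAA of the GATA family and the motif TGTTTAC of forkhead factors.
Adcyap1, chr17:93383986-93384285: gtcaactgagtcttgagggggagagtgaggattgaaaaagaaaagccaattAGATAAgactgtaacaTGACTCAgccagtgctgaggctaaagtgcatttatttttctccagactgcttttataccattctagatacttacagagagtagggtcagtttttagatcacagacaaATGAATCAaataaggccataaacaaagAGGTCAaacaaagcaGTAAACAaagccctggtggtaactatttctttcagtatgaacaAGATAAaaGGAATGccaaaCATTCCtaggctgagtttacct
Tgif1, chr17:71087421-71087720: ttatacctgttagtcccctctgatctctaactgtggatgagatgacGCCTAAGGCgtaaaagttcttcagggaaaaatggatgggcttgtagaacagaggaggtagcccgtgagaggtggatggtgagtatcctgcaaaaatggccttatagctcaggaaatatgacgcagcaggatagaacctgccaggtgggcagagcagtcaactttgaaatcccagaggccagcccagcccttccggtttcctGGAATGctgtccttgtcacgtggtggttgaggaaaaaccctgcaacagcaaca
Prr30, chr14:101731433-101731732: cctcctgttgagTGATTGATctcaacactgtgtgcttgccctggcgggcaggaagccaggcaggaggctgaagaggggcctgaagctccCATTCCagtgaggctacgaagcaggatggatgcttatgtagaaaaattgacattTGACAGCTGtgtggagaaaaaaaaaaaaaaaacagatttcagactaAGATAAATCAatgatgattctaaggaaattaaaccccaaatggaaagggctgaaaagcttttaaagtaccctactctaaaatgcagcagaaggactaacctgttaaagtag
Impg1, chr9:80199651-80199950: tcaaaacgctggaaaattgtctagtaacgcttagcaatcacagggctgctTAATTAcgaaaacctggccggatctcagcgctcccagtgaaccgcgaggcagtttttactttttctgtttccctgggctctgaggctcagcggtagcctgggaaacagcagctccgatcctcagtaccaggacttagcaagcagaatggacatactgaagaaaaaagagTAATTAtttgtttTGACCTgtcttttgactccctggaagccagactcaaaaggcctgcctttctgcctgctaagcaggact
A330008L17Rik, chr8:102427985-102428284: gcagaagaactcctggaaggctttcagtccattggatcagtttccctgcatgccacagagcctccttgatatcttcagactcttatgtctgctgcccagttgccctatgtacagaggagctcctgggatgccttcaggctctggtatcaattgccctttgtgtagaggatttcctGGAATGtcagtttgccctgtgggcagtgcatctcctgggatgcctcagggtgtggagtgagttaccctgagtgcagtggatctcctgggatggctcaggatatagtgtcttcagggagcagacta
Dlg2, chr7:99329872-99330171: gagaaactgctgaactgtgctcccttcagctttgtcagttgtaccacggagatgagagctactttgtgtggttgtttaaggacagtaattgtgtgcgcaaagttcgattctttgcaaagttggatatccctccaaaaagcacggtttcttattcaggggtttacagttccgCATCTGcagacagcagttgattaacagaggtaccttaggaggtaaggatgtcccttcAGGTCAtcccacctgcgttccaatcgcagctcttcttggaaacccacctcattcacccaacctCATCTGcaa
The 6 windows held between 1 and 6 kinds of motif. That of Dlg2 came from a region 828 bp from another annotated start of the gene. The window of A330008L17Rik held the TEAD motif (GGAATG) alone. The region with the most kinds was assigned to Nobox, a homeobox gene of the oocyte, and lay 27993 bp upstream of its TSS. Its window held 8 kinds, including the motif given for Isl1 and other LIM-homeodomain factors (TAATGG), the homeodomain core (TAATTA), the T-box motif (AGGTGTG) and the central-GC E-box (CAGCTG).
Nobox, chr6:43287396-43287695: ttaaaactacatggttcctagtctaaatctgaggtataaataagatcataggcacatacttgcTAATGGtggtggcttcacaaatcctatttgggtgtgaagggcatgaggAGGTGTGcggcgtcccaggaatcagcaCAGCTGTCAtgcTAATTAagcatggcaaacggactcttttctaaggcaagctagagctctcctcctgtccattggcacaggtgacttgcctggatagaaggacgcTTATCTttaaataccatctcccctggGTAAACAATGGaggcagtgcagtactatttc

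Most of the 325 genes had few regions. Of them, 204 (62.8%) had 2 regions, 95 (29.2%) had 3 or 4 and 26 (8.0%) had 5 or more. Adcyap1 had the most, with 9, followed by Tgif1, Prr30, Impg1 and A330008L17Rik with 7 each. The regions of 1 gene spread over a median of 98874 bp (95% interval 83446 to 118509), from 1756 bp to 1552476 bp, and 7 genes had regions spread over more than 1 Mb. Neighbouring regions of a gene were a median of 65152 bp apart (95% interval 59009 to 74611), which overlapped the 66232 bp (60824 to 71269) between distal regions of genes that also had a proximal region. Gaps under 10 kb made up 12.5% (10.0 to 15.6) of the 542 gaps. Regions clustered within a few kb were thus a minority.

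For genes with exactly 2 regions, both lay upstream of the TSS in 69, both downstream in 79 and 1 on each side in 56. In 72.5% (66.1 to 78.2) of these 204 genes both regions therefore lay on the same side. The share was 69.6% (64.9 to 73.9) in the 395 genes with 2 distal regions beside a proximal region, and the intervals overlapped. Over all 868 regions, 44.2% (40.97 to 47.6) lay upstream of the assigned TSS. Each side was taken from the TSS assigned to that region. Regions of 1 gene could be assigned to different TSS, as in Dlg2 and Rgs3.

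**Figure D1:**
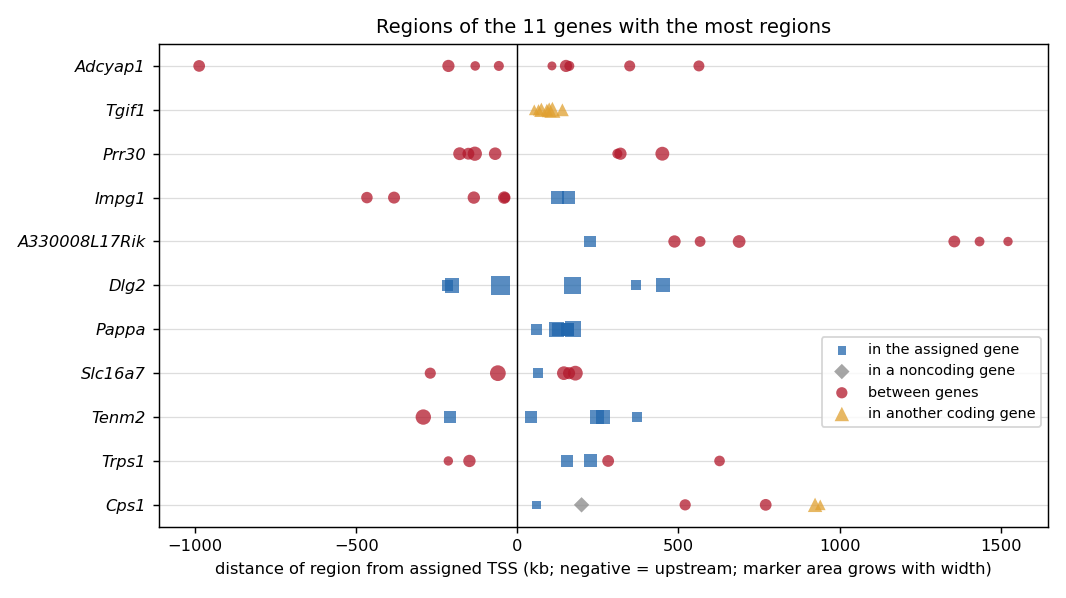
Position of each region (horizontal axis, distance in kb from the TSS assigned to that region, negative upstream) for the 11 genes with 6 or more regions. Each marker is 1 region, its area grows with region width and its colour gives where the midpoint lies. The regions of Dlg2 were measured from more than 1 TSS, so its markers do not share 1 zero. The 7 regions of Tgif1 form 1 group downstream of the TSS inside another gene, whereas those of Adcyap1 lie on both sides and outside genes.

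Adcyap1 encodes PACAP, a neuropeptide that acts through G protein-coupled receptors. Its 9 regions lay on chromosome 17 between 92609860 and 94162335, 4 upstream and 5 downstream, and all 9 lay outside genes. The nearest was 57710 bp upstream of the TSS and the farthest 988034 bp upstream. No other coding gene started within this span, and the nearest coding starts beyond it were those of Gm6741 at 973749 bp and Mettl4 at 985014 bp. The regions were narrow, from 540 to 1008 bp, and 4 of them were over 10% repeated sequence.

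Tgif1 encodes a TALE homeodomain repressor known to restrain TGF-β and retinoid signalling. Its 7 regions were close together, within 88204 bp of chromosome 17, and all lay 52312 to 139574 bp downstream of the TSS. All 7 were inside Dlgap1, a gene for a scaffold protein of the synapse that is read from another start. The coding start nearest to each was nevertheless that of Tgif1. The widest was 1736 bp.

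Prr30 (a proline-rich protein) had 7 regions outside genes on chromosome 14, 4 upstream and 3 downstream over 630457 bp. The span lay between the starts of Klf12, 599749 bp to 1 side, and Tbc1d4, 83220 bp to the other. For 3 of the 7 regions the nearest coding start in GENCODE was that of Tbc1d4, a Rab GTPase-activating protein, and not that of the assigned gene. Klf12, a zinc finger repressor, was itself among the 325 genes. Its 3 regions lay 135359, 203370 and 309715 bp upstream of its TSS, and the first was 3876 bp wide, the second widest of all 868.

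Impg1, which encodes a proteoglycan of the matrix around photoreceptors, had 7 regions over 627502 bp of chromosome 9. Of these, 2 lay in its introns and 5 outside genes, upstream. The 2 intronic regions were nearer to the start of Myo6, a myosin gene, at 45080 and 79517 bp, than to that of Impg1. A pair of the upstream regions, 39268 and 40921 bp from the TSS, were 748 bp apart. A330008L17Rik, a gene named only by its clone, had 7 regions 224002 to 1522995 bp downstream, which included the most distant of all 868. A region 538 bp from its annotated start was in the list and was assigned to Cdh8.

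Of the 6 genes with 6 regions each, Dlg2 and Pappa held all theirs within the gene. Dlg2 encodes PSD-93, a scaffold protein of synapses. Of its 6 regions, 3 lay at other annotated starts of Dlg2, at 280, 509 and 828 bp, and these were 1353, 2069 and 2374 bp wide. The other 3 were 682, 892 and 1447 bp wide and were over 20 kb from any annotated start. The region at 828 bp, listed as 53458 bp upstream, lay farther along chromosome 7 than those listed as 171638 and 452048 bp downstream. Its distance was thus counted from another TSS. Pappa, a metalloproteinase that cleaves a binding protein of insulin-like growth factors, had 6 intronic regions within 115186 bp, 58870 to 172767 bp downstream of the TSS, and none was near another start.

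Tenm2, a teneurin of cell adhesion in the nervous system, had 5 regions in its introns. Of its 6 regions, 2 lay 51 and 501 bp from other annotated starts of the gene. Slc16a7 encodes a monocarboxylate transporter. Its 6 regions lay 60709 to 270588 bp from the TSS on both sides, and 5 were outside genes. Trps1, a GATA-type zinc finger repressor of skeletal and hair development, had 6 regions 149016 to 627452 bp from the TSS. A further region 430 bp from an annotated start of Trps1 had been assigned to the noncoding transcript Mir1907. Cps1, the first enzyme of the urea cycle, had 6 regions downstream over 882442 bp. The 3 farthest were nearer to the start of Erbb4, a neuregulin receptor, than to that of Cps1.

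The rule was then set against the GENCODE annotation of the same build, which holds more starts than the list uses. Of the 325 genes, 317 were found there. For 52 of them (16.4%, 12.7 to 20.9), a region lay within 1 kb of an annotated start after all. In 28 of the 52 a region of the gene itself, counted as distal from another start, lay there. In the other 24 the nearest region there had been assigned to another coding gene (18) or to a noncoding transcript (6). The assigned TSS itself, placed from the deposited distance, had a region of any gene within 1 kb in 18 of 317 genes. Among them were Cggbp1 and Xrcc4, where the region had been assigned to Zfp654 and Tmem167. No region of any gene lay within 10 kb of an annotated start of 237 genes (74.8%, 69.7 to 79.2). For these 237 genes the description as all distal held whichever annotated start was used, and for the others it depended on the start or on the assignment.

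The genes with an own region at another annotated start included Bach2, Cdon, Lin28b, Foxn3, Nrg1, Col2a1 and Adgrl2. Bach2, a transcription repressor of lymphocytes, had a region of 2488 bp at 204 bp from a start, listed as 178154 bp upstream. Adgrl2, an adhesion G protein-coupled receptor, had the widest region of all 868, 4023 bp at 180 bp from a start and 34501 bp upstream of the assigned TSS. Nrg1, a ligand of ErbB receptors needed for trabeculae of the heart, had a region of 2172 bp at 84 bp from a start. For Zic4, a zinc finger gene of the dorsal neural tube, a region 505 bp from a start was assigned to its divergent neighbour Zic1, and a region of its own lay 650 bp from another of its starts. For Thbs1, a matrix glycoprotein, the region 572 bp from its start was assigned to the noncoding transcript Gm13986. For Slc2a3, a glucose transporter, the region at 3 bp was assigned to Foxj2.

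Counted by region, 72 of 868 (8.29%, 6.64 to 10.3) lay within 1 kb of any annotated start. Of these, 34 were at a start of the assigned gene, 16 at a start of another coding gene and 22 at a noncoding start. Regions at a start of the assigned gene were wider and richer in GC, with a median width of 1362.5 bp (1012 to 1594) and a median GC content of 56.3% (53.2 to 60.2). The 796 regions away from starts had medians of 928.5 bp (909 to 949) and 46.3% (45.8 to 46.7). An example at a start of another gene was Fam134b, whose product acts in turnover of the endoplasmic reticulum. Its 3 regions fell within 22350 bp inside Myo10, and 2 of them lay 44 and 12 bp from starts of Myo10.

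The rule's threshold of 10000 bp separated neighbours by small distances. The 3 genes just inside it were Cdkl4, Siah3 and Cfap126, whose nearest regions were 10142, 10336 and 10338 bp from the TSS. The 3 just outside it were Nat1, Maml2 and Slc24a3, with nearest regions at 9907, 9720 and 9512 bp. In all, 18 of the 325 genes had their nearest region between 10 and 12 kb.

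Of 32 transcription factor genes of pharyngeal and head mesoderm with a region, 2 met the rule (6.25%, 1.73 to 20.1), an interval that held the 3.11% of all coding genes with a region. These were Tshz1, with regions 246647 and 270824 bp downstream and a region 1455 bp from an annotated start that was assigned to Zadh2, and Zfhx3, a large homeodomain and zinc finger factor, with intronic regions 48023 and 106140 bp downstream. Irx1, an Iroquois homeobox gene expressed in the ventricular septum, had regions 157345 and 246584 bp upstream, both outside genes, and 1051 and 1004 bp wide. No region lay nearer to an annotated start of Irx1 than 157345 bp. Of 44 genes named in the study's text or chosen for their role in it, 30 had a region, and 1 of these, Irx1, met the rule (3.33%), near the 3.11% of all coding genes. Of the others, 25 had a proximal region, 4 had 1 distal region and 14 had none.

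Of 46 transcription factor genes of the nervous system and neural crest with a region, 5 met the rule (10.9%, 4.73 to 23.0, beside the 3.11% of all coding genes). Only genes with 2 or more regions could meet the rule, and 11.9% of the 2730 such coding genes did. Here and below, the shares of gene lists and families were not matched for the number of regions per gene. Zic4 had 4 regions, and the nearest, listed as 12788 bp downstream and 1310 bp wide, was the 1 that lay 650 bp from another annotated start of Zic4. Pax8, a paired-box factor of thyroid, kidney and hindbrain, had 3 regions 27764, 45978 and 132850 bp upstream. The farthest of these lay 915 bp from a start of another coding gene, Cacna1b. Lmx1a, a LIM-homeodomain factor of the roof plate, had 3 downstream, at 72451, 225798 and 240614 bp. Olig2, of motor neuron and oligodendrocyte precursors, had 2 upstream, at 32674 and 55459 bp, and Tfap2b, of the neural crest, had 1 on each side, at 29842 bp upstream and 29486 bp downstream.

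By symbol, 14 of 95 homeobox genes with a region met the rule (14.7%, 8.99 to 23.2), against 3.11% of all coding genes with a region. This family was picked after the members were seen and is a description only. Besides those above they were Tgif1, Pknox2, Lhx8, Isx, Pou5f2, Barx2, Dbx1, Dbx2 and Nobox. Of 313 Zfp zinc finger genes 8 met it (2.56%, 1.30 to 4.96), and of 112 ribosomal protein genes none did, which allows a share of up to 2.68% at 3 counts. Of 373 genes named by clone or prediction number only, 35 did (9.38%, 6.82 to 12.8). Of 67 olfactory and vomeronasal receptor genes, which act in sensory neurons, 6 did (8.96%, 4.17 to 18.2).

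Genes of blood and endothelium had the highest share among the 13 lists, 6 of 17 with a region (35.3%, 17.3 to 58.7), beside 3.11% of all coding genes with a region. The list held 39 genes. Of the 17 with a region, 9 (52.9%) had a proximal region and 2 had 1 distal region. The 6 that met the rule were Cdh5, Emcn, Npr3, Fli1, Vwf and Tek. Their count was 3 when distal meant beyond 25000 bp, a threshold at which the count over all genes went from 325 to 216. Cdh5, the cadherin of endothelial junctions, had 3 regions 24420, 73008 and 187100 bp upstream, 744, 811 and 868 bp wide and all outside genes. Fli1, an ETS factor of endothelial and blood progenitors, had 2 regions 50486 and 65862 bp upstream. Emcn, a sialomucin of venous and capillary endothelium, had 2 at 123548 and 247230 bp upstream. These 3 genes had their regions upstream and outside genes.

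Tek, the receptor of angiopoietins, had a region 23811 bp upstream and an intronic 1 at 13334 bp downstream. Npr3, the natriuretic peptide clearance receptor of the early endocardium, had 2 regions outside genes, 69454 and 110769 bp downstream. Vwf, von Willebrand factor, differed from the other 5, since a region of 534 bp listed as 50451 bp downstream lay 151 bp from another annotated start of Vwf. Angpt1, the ligand of Tek and a product of the myocardium, was also among the 325 genes. It had 4 regions, 3 in its introns and 1 at 90428 bp upstream, the nearest at 12283 bp. The level of these genes was not measured in the list.

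Among genes for secreted signals, 3 of 47 met the rule (6.38%, 2.19 to 17.2, with 3.11% over all coding genes inside the interval), namely Angpt1, Nrg1 and Fgf20. Fgf20 had regions 135820 and 205843 bp downstream, and a further region 338 bp from its annotated start was assigned to Micu3. Of 58 genes for receptors and feedback regulators 2 did (3.45%, 0.951 to 11.7), near the 3.11% of all coding genes. Hhip, a Hedgehog-binding inhibitor, had 3 regions, at 20060 and 122102 bp downstream and 195977 bp upstream. Kit, the stem cell factor receptor, had 2 regions 93161 and 99451 bp upstream, 752 and 816 bp wide.

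Adhesion genes met the rule in 4 of 30 cadherins and protocadherins (13.3%, 5.31 to 29.7) and in 5 of 45 leucine-rich repeat and synaptic adhesion genes (11.1%, 4.84 to 23.5), beside 3.11% of all coding genes with a region. Both intervals held the 11.9% of coding genes with 2 or more regions. Cdh5 was counted here as a cadherin and also among the genes of blood and endothelium. Fat1 and Fat3, atypical cadherins of planar polarity and growth, had 4 regions each. A region of 3321 bp lay 122828 bp upstream of Fat3. A pair of 2091 and 2108 bp lay 14730 and 12192 bp upstream of Fat1, 439 bp apart. Negr1, Ntm, Slitrk6 and Lrrc4 joined Adgrl2 in the synaptic list. A region 86 bp from a start of Negr1 was assigned to 4930570G19Rik. Ntm had a region 926412 bp downstream within its own introns. None of the cadherin genes met the rule when distal meant beyond 25000 bp.

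Of 18 genes of the contractile apparatus with a region, 1 met the rule (5.56%, 0.988 to 25.8, an interval that held the 3.11% of all coding genes). Myom2, an M-band protein of the sarcomere, had a region in its exon 13893 bp downstream and 3 outside genes at 269572, 332738 and 462327 bp downstream. Of 59 ion channel and neurotransmitter receptor genes 2 did (3.39%, 0.935 to 11.5), near 3.11%. Gja1, connexin 43 of the gap junctions, had regions 54767, 466230, 516127 and 544018 bp downstream, all outside genes and 1002 to 1209 bp wide. Kcnd2, a potassium channel subunit of transient outward current, had 2 in its introns. The 4 regions of Gja1 were of like width, with 3 of them within 80 kb of each other.

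Of 41 genes of the extracellular matrix 3 met the rule (7.32%, 2.52 to 19.4), and 3.11% lay within the interval. Col2a1, the collagen of cartilage and notochord, had 2 intronic regions at 11564 and 14487 bp downstream, and the second lay 239 bp from another of its starts. Col14a1 had 2 upstream, at 26860 and 41802 bp. None of 40 axon guidance genes and none of 24 housekeeping genes met the rule, which allows shares of up to 7.50% and 12.5% at 3 counts. All 24 housekeeping genes with a region had a proximal one. In all, 33 of the 325 genes (10.2%) were on any of the 13 lists. The same share over all coding genes with a region was not computed, so this count is a description only.

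The most distant regions belonged to A330008L17Rik, at 1522995 and 1434611 bp, and to Slc10a2, the bile acid transporter of the ileum, at 1467184 bp upstream. The 4 regions of Slc10a2 were 540 to 796 bp wide. The third widest region, 3713 bp, lay 25803 bp downstream of Olfr1423, an olfactory receptor gene. The most compact genes with 3 or more regions were Slc2a3, Fam134b and Gpx5, a glutathione peroxidase of the epididymis, with 3 regions each over 13670, 22350 and 22993 bp.

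As a group, the 868 regions lay farther from the TSS than lone distal regions. Their median distance was 86034.5 bp (75019 to 93873), that of distal regions beside a proximal region was 72241 bp (68915 to 76172), and that of lone distal regions 34175 bp (31807 to 37212). Distance was a value the rule used, so these medians are a description. Regions beyond 300 kb made up 14.3% of the 868, 13.3% (12.3 to 14.5) of distal regions beside a proximal region and 1.98% of the lone regions.

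Their median width was 941 bp (921 to 964), against 1267 bp (1259 to 1276) for proximal regions. Its interval overlapped those of distal regions beside a proximal region, 936 bp (924 to 946), and of lone distal regions, 921 bp (900 to 942). Median GC content was 46.6% (46.2 to 47.2), close to the 46.4% (46.2 to 46.6) of distal regions beside a proximal region and below the 49.9% (49.3 to 50.2) of lone distal regions. Proximal regions had 57.7% (57.5 to 57.8). Median CpG frequency was 1.28 per 100 bp (1.19 to 1.34) in the 868 regions and 5.70 (5.64 to 5.75) in proximal regions. Lone distal regions had a higher CpG frequency than the 868, 1.69 (1.60 to 1.80).

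GC content fell with distance. It was 48.4% (47.9 to 49.2) at 10 to 100 kb, 46.3% (45.7 to 46.7) at 100 to 300 kb and 43.0% (42.3 to 44.0) beyond 300 kb. Distal regions beside a proximal region had 47.8%, 45.3% and 43.3% in the same bins. Lone regions had 50.3% (49.9 to 50.9) at 10 to 100 kb, which stayed above the other classes in this bin. Beyond 300 kb only 17 lone regions were left.

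**Figure D2:**
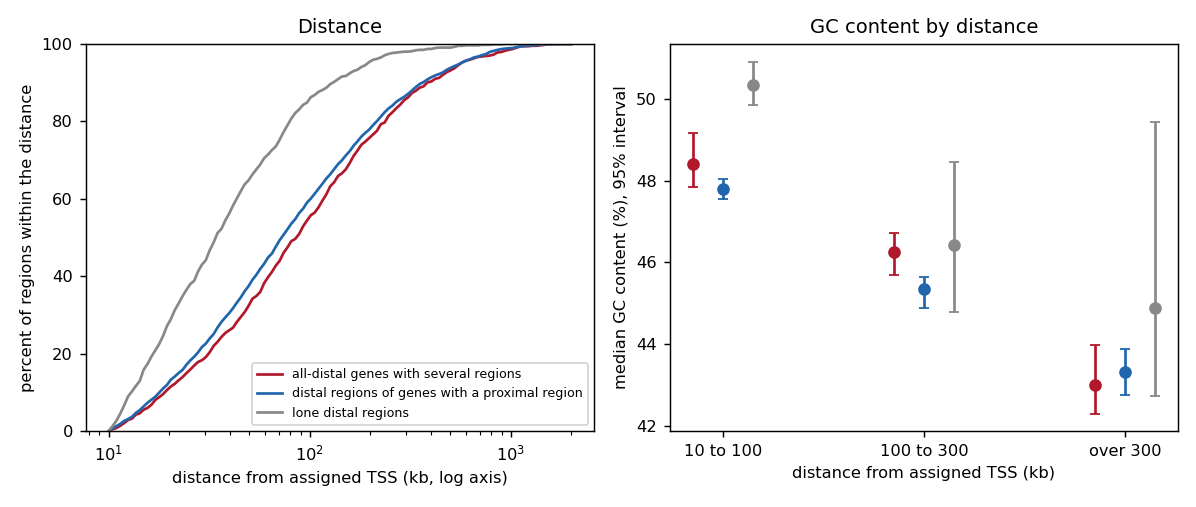
Left, percent of distal regions (vertical axis) within a distance of the assigned TSS (horizontal log axis, kb) for the 3 classes of distal region; right, median GC content with 95% interval in 3 distance bins, in the same colours. The curve for lone regions lies to the left, with a median of 34175 bp against 86034.5 bp, and GC content of the 868 regions falls from 48.4% to 43.0%.

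Regions of the same gene resembled each other more in base composition than regions of different genes. The median difference in GC content was 4.05 percentage points over 930 pairs within a gene and 5.67 over 375348 pairs of different genes. For CpG frequency the medians were 0.669 and 0.903 per 100 bp. For width they were 240 and 253 bp. These pairs share regions and, within a gene, the locus, and were not tested.

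Most regions lay outside genes. Of the 868, 61.6% (58.4 to 64.8) had their midpoint between genes, 22.8% (20.1 to 25.7) in an intron and 2.76% (1.86 to 4.08) in an exon of the assigned gene, 10.7% (8.83 to 12.9) in another coding gene and 2.07% in a noncoding gene. Distal regions beside a proximal region lay between genes in 56.4% (54.8 to 57.9) and in an intron of their gene in 29.8% (28.3 to 31.3), so that neither pair of intervals overlapped. Beyond 300 kb the share between genes was 85.5% (78.2 to 90.6) against 71.3% (67.3 to 75.1). At 10 to 100 kb it was 53.8% (49.4 to 58.3) against 50.4% (48.3 to 52.4). Over all distances, lone distal regions lay between genes in 56.6% (53.3 to 59.9) and in an intron of their gene in 21.8% (19.2 to 24.7). Both intervals overlapped those of the 868 regions.

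Counted by gene, 147 of the 325 (45.2%, 39.9 to 50.7) had all their regions outside genes, 41 (12.6%) had all within the gene itself and 17 (5.23%) had all within other coding genes. Of the 806 genes with a proximal region and at least 2 distal ones, 36.4% (33.1 to 39.7) had all distal regions outside genes. Exactly 2 distal regions were present in 204 of the 325 genes and in 395 of the 806. The shares were not matched for this number, so they are not like for like. The annotation placed the assigned gene's start as the nearest coding start for 78.0% (75.1 to 80.6) of the 868 regions and for 83.7% (82.5 to 84.8) of the distal regions beside a proximal region. For lone distal regions the share was 79.0% (76.2 to 81.6), and its interval overlapped that of the 868 regions. For the rest, another coding gene started nearer.

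Motifs were searched on both strands in the central 300 bp of each region, and in 2 windows of 300 bp centred 3 kb to either side. Matches of different motifs could overlap, and a match is a run of letters and not a measured site. Beside the motifs spelled out above, the search used the Twist and Hand type E-box (CATCTG), SOX (ACAATGG), the motif of nuclear receptors (AGGTCA), Meis and other TALE factors (TGACAG), Hox with Pbx (TGATTNAT), AP-1 (TGANTCA), TFAP2 (GCCNNNGGC), TCF and LEF (CTTTGAT), and the MEF2 motif, the SRF CArG box and the CTCF core by their names. Some motif was present in 87.6% of the 868 windows, with a mean of 2.003 kinds ± 1.35 (SD over 868 regions). Distal regions beside a proximal region had a mean of 2.06 kinds and proximal regions 1.15.

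The CTCF core was the motif with the largest ratio to the surroundings. It was present in 39 of 868 windows (4.49%, 3.30 to 6.08) and in 1 of 1736 flanking windows (0.0576%, 0.0102 to 0.326). Of all regions in the list 2.32% held it and of proximal regions 0.890%. The other distal classes held it about as often, with 4.14% (3.55 to 4.82) of distal regions beside a proximal region and 5.83% (4.45 to 7.60) of lone distal regions. Both intervals overlapped that of the 868 regions. The TFAP2 motif was in 12.6% (10.5 to 14.9) of windows and 3.80% (3.00 to 4.81) of flanks, beside 23.3% of all regions. The central-GC E-box was in 23.0% (20.4 to 26.0) and 12.2% (10.8 to 13.8), beside 19.5% of all regions. TFAP2 and E-box motifs are rich in GC, and the windows had a median GC content of 49.7% against 42.0% in the flanks. The part of base composition in these differences was not tested.

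Motifs of TEAD, Meis, forkhead and SOX factors were also more frequent in windows than beside them. The TEAD motif was in 22.7% (20.03 to 25.6) against 16.6% (14.9 to 18.4), the Meis motif in 25.1% (22.3 to 28.1) against 18.1% (16.4 to 20.03), the forkhead motif in 7.14% (5.61 to 9.05) against 4.26% (3.41 to 5.32), and the SOX motif in 7.83% (6.23 to 9.81) against 5.41% (4.45 to 6.58). The SOX intervals overlapped, and the others did not. All regions of the list held these 4 in 15.4%, 18.5%, 3.58% and 4.31%. TEAD factors act at the end of the Hippo pathway, and Meis and other TALE factors are cofactors of Hox proteins.

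The GATA, Isl1, T-box and MEF2 motifs were not more frequent in the windows than beside them. The GATA motif was in 14.98% (12.8 to 17.5) of windows and 20.2% (18.3 to 22.1) of flanks, with 8.54% of all regions. The motif given for Isl1 was in 9.79% (7.99 to 11.95) and 12.2% (10.8 to 13.8), with 6.09% of all regions. The T-box motif was in 3.80% (2.72 to 5.29) and 5.47% (4.50 to 6.64), and the MEF2 motif in 0.691% of both. The GATA and Isl1 motifs are rich in A and T, and the flanks had the lower GC content. Its part in these differences was not tested. For every motif except the SRF CArG box, the interval in the 868 regions overlapped that in distal regions beside a proximal region. The CArG box was in 5 of 868 windows (0.576%, 0.246 to 1.34) and in 1.79% (1.42 to 2.27) of those.

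The same motif recurred in regions of 1 gene in some cases. The Meis motif was in at least 2 regions of 41 genes, the TEAD motif in at least 2 of 35 and both E-boxes in at least 2 of 33 genes each. Impg1 and Adcyap1 had the Twist and Hand type E-box in 3 or more regions, and Trps1 and Slc16a7 the TEAD motif. The GATA motif recurred in 18 genes and the T-box motif in none. No share that chance would give was computed.

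**Figure D3:**
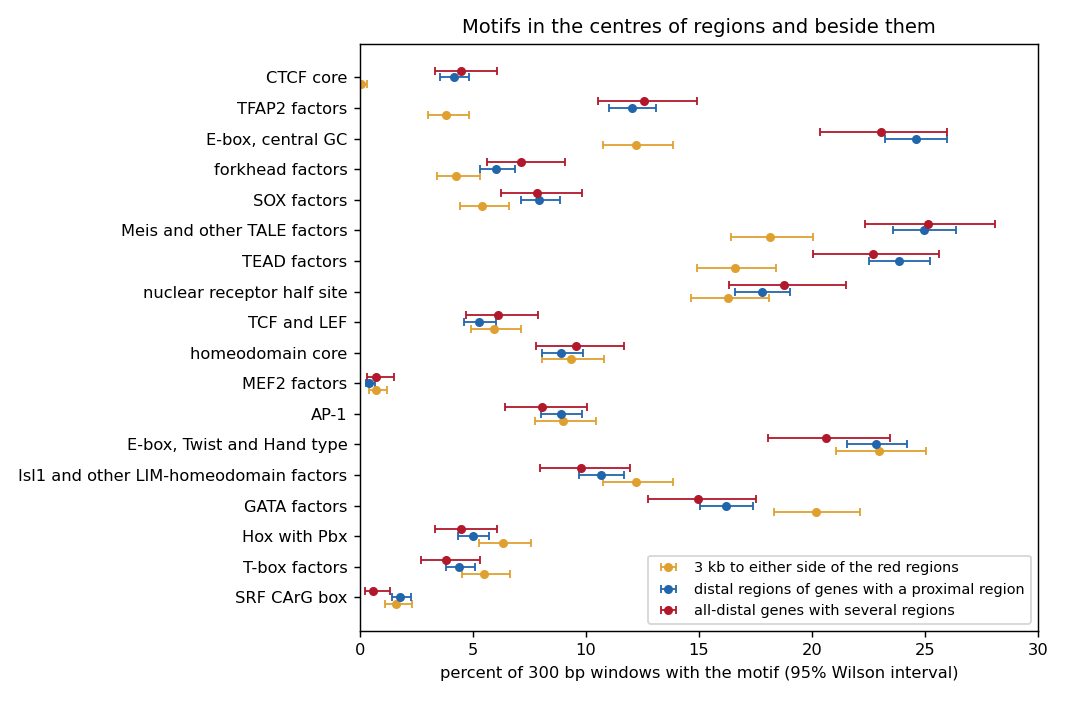
Percent of 300 bp windows with each of 18 motifs (horizontal axis, points with 95% Wilson intervals) in the 868 regions (red), in distal regions of genes with a proximal region (blue) and 3 kb to either side of the 868 regions (yellow), ordered by the ratio of red to yellow. Red and blue lie together, whereas the yellow points for the CTCF core (0.0576%) and TFAP2 (3.80%) lie to the left and those for GATA (20.2%) to the right.

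The 39 windows with the CTCF core belonged to 37 genes, and their regions had a median width of 808 bp and a median distance of 102255 bp. Among the 11 genes with the most regions, 3 had such a match at least 12 bases inside the window, and these are shown so that cores and surroundings can be compared. Each is written on the strand of the motif, with the 12 bases of the core in capitals.
Prr30, chr14:101778742-101778777 (minus strand): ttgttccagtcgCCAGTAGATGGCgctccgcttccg
Dlg2, chr7:98605845-98605880 (plus strand): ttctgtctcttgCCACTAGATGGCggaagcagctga
Trps1, chr15:50093225-50093260 (minus strand): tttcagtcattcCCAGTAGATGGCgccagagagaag
The cores of Prr30 and Trps1 had the same 12 bases, and that of Dlg2 differed from them. Over 10% repeated sequence was found in 17.9% of the 39 regions, Dlg2 included at 15.6%.

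The sequence at the TSS itself was then compared, since the rule used only where regions lay. The TSS was placed from the deposited distance of each gene's nearest region, with the strand from GENCODE, for 317 of the 325 genes. From 250 bp before to 50 bp after it, the 317 genes had a median of 2.0 CpG per 100 bp (1.67 to 2.33) and a GC content of 49% (47.3 to 50.3). Genes with a proximal region had 7.33 CpG per 100 bp (7.0 to 7.33) and 62.0% GC (61.7 to 62.3). Fewer than 2 CpG per 100 bp were found in 48.9% (43.4 to 54.4) of the 317 genes and in 6.44% (5.95 to 6.96) of the genes with a proximal region. Genes with 1 distal region were between them at 44.2% (40.9 to 47.6) and a median of 2.33 (2.0 to 2.67), and for CpG the intervals overlapped those of the 317 genes. Their GC content was 52.7% (52.0 to 53.7), and this interval did not overlap that of the 317 genes.

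Within the 317 genes, the 52 with a region at some annotated start had a median of 3.0 CpG per 100 bp (2.33 to 7.0) at the assigned TSS. The 265 without had 1.67 (1.33 to 2.0), and 53.2% of them were under 2 CpG per 100 bp. Low CpG was not a rule without exception. Irx1 had 11.7 CpG per 100 bp and a GC content of 74.7% at its TSS, yet no region was listed there. Cdh5 had 1.67 and Adcyap1 2.33.

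**Figure D4:**
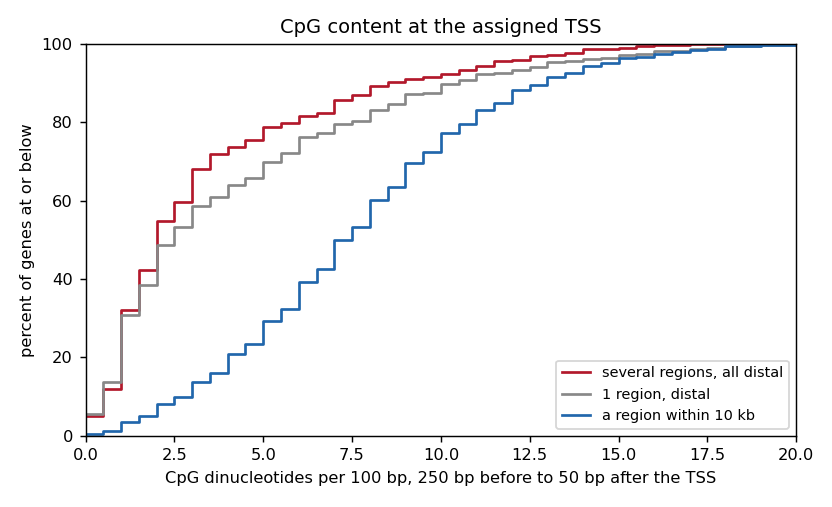
Percent of genes (vertical axis) with at most a given number of CpG dinucleotides per 100 bp around the assigned TSS (horizontal axis), for 317 genes with several regions that are all distal (red), genes with 1 distal region (grey) and genes with a proximal region (blue). Red and grey rise early, with medians of 2.0 and 2.33, and blue rises late, with a median of 7.33.

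The starts of Adcyap1 and Gja1 are shown as examples of sequence that was not in the list although the gene had 9 and 4 distal regions. Both are 300 bp of mm9 written 5′ to 3′ on the gene's plus strand, with each CpG in capitals.
Adcyap1, chr17:93598107-93598406: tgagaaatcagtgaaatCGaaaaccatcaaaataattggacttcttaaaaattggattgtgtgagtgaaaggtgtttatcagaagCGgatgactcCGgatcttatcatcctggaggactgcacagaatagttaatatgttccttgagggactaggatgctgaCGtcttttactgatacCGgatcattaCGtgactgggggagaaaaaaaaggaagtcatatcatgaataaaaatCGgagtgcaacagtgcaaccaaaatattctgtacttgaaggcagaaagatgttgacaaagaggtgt
Gja1, chr10:56096856-56097155: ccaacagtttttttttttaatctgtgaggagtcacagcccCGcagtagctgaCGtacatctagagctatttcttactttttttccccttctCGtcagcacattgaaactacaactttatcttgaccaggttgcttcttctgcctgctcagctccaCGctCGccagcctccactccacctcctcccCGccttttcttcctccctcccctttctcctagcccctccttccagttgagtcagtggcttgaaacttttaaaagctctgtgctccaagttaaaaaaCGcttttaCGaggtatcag
There were 7 CpG in the stretch of Adcyap1 and 8 in that of Gja1.

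Some of the 868 regions lay in repeated or duplicated sequence, where reads can be placed at the wrong copy. A 31-base word was called repeated when it occurred more than once in the genome. Over 50% of such words were repeated in 31 regions (3.57%, 2.53 to 5.02). The share was 2.40% (1.96 to 2.94) of distal regions beside a proximal region and 4.20% (3.05 to 5.75) of lone distal regions. The interval of the 868 regions overlapped both. In 5 genes every region was over 50% repeated: Sftpd, a surfactant protein of the lung, with 4 regions, Olfr1507 with 3, and Zfp600, Zfp980 and Gm10377 with 2 each. The values of these 5 genes cannot be assigned to 1 copy with certainty. Btg3, an antiproliferative gene, was counted from 1 transcript placed at separate loci, with 2 regions on chromosome 16, 39690 and 80784 bp upstream, and 2 on chromosome 17, 97012 and 154897 bp downstream.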

How the data were processed

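ATAC-Seq libraries came from pharyngeal mesoderm and hearts at E8.75, 3 per genotype, grouped by the labels. Only the wild-type regions were used, as 1 list. According to the methods, the authors aligned reads with bowtie2 (mm9), filtered with samtools for primary alignments in proper pairs, dropped duplicates using Picard 1.136, called peaks with MACS14 per library without a fragment model, removed blacklisted peaks and intersected replicates with bedtools 2.15 (at least 1 bp). A common region therefore has the edges of 1 library, and a site not called in 1 of the libraries is not listed. No Tn5 offset is stated, so edges are not insertion sites. The deposited columns hold positions and the distance in bp to an assigned TSS, which are measurements of another kind than counts or scores, and no other value column was present (0 unmapped). The tool that assigned genes is not given in the sources used here for these regions.

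Of 17432 rows, 17164 were distinct. Coordinates were counted from 1 with both ends included. Sequence came from the NCBIM37 genome (the build mm9) and gene structure from GENCODE vM1 of that build. Of 11541 symbols, 10059 were matched by symbol and 832 by synonym, and 650 were not. Place was that of the midpoint. Repeats were counted with words of 31 bases. Synonyms came from a RefSeq table of GRCm38.p6, whose coordinates were not used. Intervals are 95%, for shares by Wilson and for medians by order statistics, and cover counting error only. A count of 0 was given a limit of 3 counts. Since no value exists per library, no test was run. Python 3.11.15, pandas 2.3.3, scipy 1.17.1 and pysam 0.24.0 were used, with functions tested on simulated data.

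The rule for the members, the gene lists and the comparisons were chosen with earlier results of these data known. Genes named were those with the most regions (10, ties included), up to 4 per gene list with the most regions, those of the 3 widest and the 3 farthest regions, the 3 most compact genes with 3 or more regions, 3 on either side of the threshold, and genes of the study's text. Other genes named, which are those at annotated starts, in symbol families and in repeats, further genes of the lists, and the genes whose starts are printed, were chosen after their values were seen, as were the symbol families. Sequences shown were the central 300 bp of the widest regions with at most 10% repeated words of the 6 genes with the most regions, and of the region with the most kinds of motif. Alternatives changed the distance threshold, the number of regions, the transcripts, repeated rows, width, joining, the starts, chromosomes and the motif window.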

Additional observations from a re-analysis of the deposited data

How the results depend on the processing

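No paired analysis was possible because the list holds no value per library, and for the same reason no library could be left out. Of 96 recomputed main values, 61 stayed within their interval or within 1.5 times the main count and 35 moved. Joining regions closer than 1000 bp, keeping repeated rows and using autosomes only moved none, although on autosomes 1 gene (Pja1) left and 1 (Timm8a1) entered, and distal beyond 5000 bp moved none either.

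Requiring 3 or more regions gave 121 genes, 460 regions, 8.34% of distal regions, a GC content of 46%, and 25% of genes with a region at an annotated start. Distal beyond 25000 bp gave 216 genes, 13.4% of distal regions, a GC content of 46%, 19.5% in the assigned gene, 66% between genes and 20 genes on any list. Including noncoding transcripts gave 546 genes, 1503 regions, 22.3% of distal regions, a GC content of 46.1%, 15.6% in the assigned gene and 67.2% between genes. Keeping only regions of the list's median width (1123 bp) or more gave 68 genes, 161 regions, 11.9% of distal regions, a median width of 1353 bp, a GC content of 49.9%, 35.4% in the assigned gene, 50.3% between genes, 50.3% upstream and 52.2% of genes with a region at a start. Distances to the nearest GENCODE start gave 17.3% in the assigned gene, 68% between genes and 9.12% of genes with a region at a start. Leaving out genes with any region within 10000 bp of a GENCODE start gave 12% of distal regions, 17.6% in the assigned gene, 67.4% between genes, 49.4% upstream and, by construction, 0% with a region at a start. In the central 200 bp, 75.3% of windows held a motif, since shorter windows hold fewer, and 15 of 18 single motifs fell below their interval. Keeping regions with at most 10% repeated words moved none of the 18. Leaving out regions within 1000 bp of any annotated start, chosen after seeing the data, gave medians of 928.5 bp and 46.3%. Depth was unknown, so a gene without a listed region near its TSS was not shown to have a closed promoter.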
